A study of Mus musculus with 147 samples.

Results

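The platelet-derived growth factor (PDGF) genes are 4 ligands (Pdgfa, Pdgfb, Pdgfc and Pdgfd) and 2 receptors (Pdgfra and Pdgfrb). All 6 symbols were found among the 35438 gene symbols in the count tables. They were followed through single YFP-positive cells of the kidney cortex from adult C57BL/6 mice, 51 wells of WT renin cells (Ren1c+/+ Ren1c-YFP) and 96 wells of Renin-null cells (Ren1c-/- Ren1c-YFP, which carry a deletion of the renin gene). Sorting relied on Ren1c-YFP, a reporter present in WT and Renin-null mice alike that puts YFP under the upstream control region of Ren1c. Each cell was therefore chosen by the activity of that region and not by renin itself. Mice with the deletion were given saline under the skin as newborns to keep them alive, and the study's experiments used mice of both sexes. The WT cells came from a single capture and the Renin-null cells from several. Cells were sorted, caught in the wells of Fluidigm C1 chips and sequenced as full-length polyA cDNA. The comparison asks which receptor type single wells held, and which ligands came from the cells of each genotype.

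PDGF ligands are dimers that cross-link 2 receptor tyrosine kinases, which then phosphorylate each other and recruit adaptors, lipid kinases and phosphatases. The alpha receptor binds the A, B and C chains and marks many interstitial fibroblasts, while the beta receptor binds mainly the B and D chains and marks pericytes, mesangial cells and smooth muscle of small vessels. In the kidney, PDGF-B from the endothelium acting on the beta receptor is known for bringing mesangial cells into the glomerulus and mural cells onto vessels.

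For the ligands that the most Renin-null wells held, Pdgfa and Pdgfd, the RefSeq windows from 250 bases before to 50 bases after each annotated start are shown, because these promoters differ in their letters while both genes were read from the same cells. The windows are on GRCm38.p6, written 5′ to 3′ along the gene. Capitals mark GGGCGG or its reverse complement CCGCCC (the core of the GC box) and TATAAA or its reverse complement TTTATA (the TATA box core). The count tables give 1 value a gene, so the 2 Pdgfa starts were not separated.
Pdgfa, upstream start, chr5:138994895-138995194, minus strand: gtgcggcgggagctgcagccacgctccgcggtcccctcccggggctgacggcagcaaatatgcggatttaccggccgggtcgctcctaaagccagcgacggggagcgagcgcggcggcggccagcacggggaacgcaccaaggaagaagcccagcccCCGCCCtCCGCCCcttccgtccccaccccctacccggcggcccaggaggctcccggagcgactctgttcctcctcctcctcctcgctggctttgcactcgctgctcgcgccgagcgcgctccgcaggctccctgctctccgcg
Pdgfa, downstream start, chr5:138994232-138994531, minus strand: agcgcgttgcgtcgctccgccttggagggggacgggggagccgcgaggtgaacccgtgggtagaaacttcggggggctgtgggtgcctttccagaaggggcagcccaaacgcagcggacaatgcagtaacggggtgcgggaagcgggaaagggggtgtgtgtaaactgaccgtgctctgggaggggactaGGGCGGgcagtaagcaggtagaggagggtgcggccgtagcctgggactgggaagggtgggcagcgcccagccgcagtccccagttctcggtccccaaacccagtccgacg
Pdgfd, chr9:6168236-6168535, plus strand: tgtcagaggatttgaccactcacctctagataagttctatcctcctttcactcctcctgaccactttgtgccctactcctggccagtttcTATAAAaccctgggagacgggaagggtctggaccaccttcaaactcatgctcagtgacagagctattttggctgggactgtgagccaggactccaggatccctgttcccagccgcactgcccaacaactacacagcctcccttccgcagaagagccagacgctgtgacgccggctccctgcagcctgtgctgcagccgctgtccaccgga
The Pdgfa windows held 2 and 1 GGGCGG matches and no TATAAA match, with a GC content of 73.3% and 67%. The Pdgfd window held 1 TATAAA match and no GGGCGG match, with a GC content of 56.7%. Of 32851 promoter windows of the same length, 35.7% held GGGCGG and 13.6% held TATAAA on either strand, so a match is a description of these letters only.

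The counts of the WT wells summed to 197904443 (26401 to 17124854 a well) and those of the Renin-null wells to 398812805 (3628 to 14505243 a well). The labels name no mouse or capture for a cell, so each genotype is 1 sample, no test between genotypes was possible, and every interval below covers counting error only. The WT wells came from their own library and the Renin-null wells from 2 libraries, YFP1 and YFP2, so genotype cannot be told apart from library and capture. The 13 mitochondrially encoded genes made up 60.4% of the median WT well and 12.4% of the median Renin-null well. A filter of 100000 or more counts, 1000 or more genes and no more than 25% mitochondrial counts passed 15 WT wells and 57 Renin-null wells, called filtered wells below.

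Some wells of the Renin-null libraries had near-identical profiles, also across libraries. Those of YFP1 well 45 and YFP2 well 45, of YFP1 well 46 and YFP2 well 46, of YFP1 well 47 and YFP2 well 47, and of YFP2 well 1 and YFP2 well 48 correlated at Pearson r of 0.974 to 0.987 across genes, and the next pair reached 0.896. Counting each of these 4 pairs once left 92 Renin-null wells, and the number of Renin-null wells that held each member is also given that way. In the WT library, wells that share a sequencing index with a well rich in a gene more often had a few counts of it, which is set beside the Pdgfrb values.

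The genotype labels were first set against renin itself. Ren1 took 96023 CPM, the counts of a gene scaled to a total of 1000000, over the WT wells and was held by all 51 of them, whereas 54 Ren1 counts in all were found in the Renin-null wells. A well was taken to hold a gene at 10 or more counts and 10 or more CPM. Akr1b7, an aldo-keto reductase of the renin lineage, was held by 51 WT wells and 65 Renin-null wells. Rgs5, a regulator of G protein signalling typical of mural cells, was held by 51 and 94 wells.

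Pdgfrb, the beta receptor, was the highest of the 6 genes per length in WT renin cells and 6.04-fold lower in Renin-null cells over all wells. Over the wells that held no tubule or podocyte marker, a set chosen after seeing the data, it was 18.4-fold lower. That set kept 96625 of 99636 WT Pdgfrb counts but only 6235 of 33260 Renin-null counts. Pdgfa, which encodes the A chain, was 3.22-fold higher in Renin-null cells over all wells and 1.39-fold higher over the wells that held no tubule or podocyte marker. Pdgfb was read almost wholly from 2 WT wells, and Pdgfra was near the limit of detection in both genotypes. A gene was called where the CPM of the summed counts differed by at least 2-fold between genotypes in the sum, in YFP1 alone and in YFP2 alone. By this rule Pdgfa and Pdgfra were called higher and Pdgfb and Pdgfrb lower, against 28.9% of 18720 genes called higher and 13.8% called lower, and Pdgfc and Pdgfd were not called. With TMM factors, which scale each library to a trimmed mean of its gene ratios, Pdgfa was no longer called and Pdgfc was called lower, beside 23.4% of genes called higher and 18.8% lower. The median log2 ratio of all genes was 1.17 rather than 0, and each ratio below should be read against that shift, which was 0.47 with TMM factors and 1.01 with CPM over counts outside the mitochondrial genes.

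Divided by the longest coding transcript of each gene, the order of levels in WT renin cells was Pdgfrb at 92.8 CPM per kb, Pdgfd at 34.8, Pdgfa at 18.6, Pdgfc at 7.81, Pdgfb at 5.32 and Pdgfra at 0.0044 CPM per kb. In Renin-null cells the order was Pdgfa at 59.9 CPM per kb, Pdgfd at 51.9, Pdgfrb at 15.4, Pdgfc at 3.20, Pdgfra at 0.093 and Pdgfb at 0.0060 CPM per kb. The receptor led in the WT wells and 2 ligands led in the Renin-null wells. The place of Pdgfa above Pdgfd did not hold in both libraries, because Pdgfd was at 74.5 CPM per kb in YFP1 and 33.0 in YFP2 while Pdgfa was at 59.6 and 60.2. With the shortest coding transcript as the length, Pdgfb in WT renin cells came to 40.8 CPM per kb, above Pdgfa at 29.8.

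**Figure D1:**
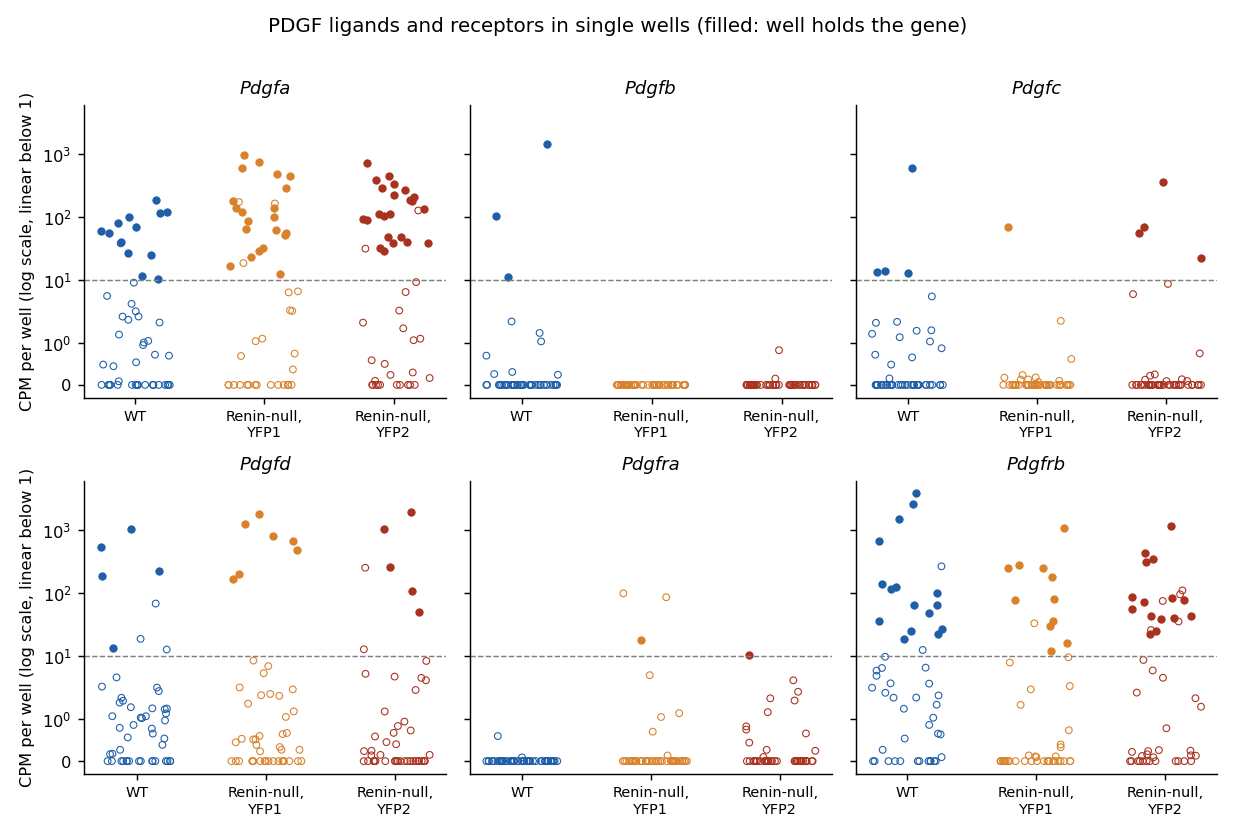
CPM of each PDGF gene in every well (vertical axis, logarithmic and linear below 1), by library (horizontal axis: 51 WT wells, 48 YFP1 wells and 48 YFP2 wells of Renin-null cells). Filled points are wells that hold the gene, open points do not, and the dashed line is 10 CPM. Pdgfb is filled in 3 WT wells only, Pdgfa is filled in 13, 21 and 23 wells of the 3 libraries, and the 3 highest Pdgfrb points are WT wells.

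Of the receptors, Pdgfrb (ENSMUSG00000024620, chromosome 18, plus strand) was the receptor type of nearly every receptor-holding well. It was held by 16 of 51 WT wells (31.4%, exact Clopper-Pearson 95% interval 19.1% to 45.9%) and by 26 of 96 Renin-null wells (27.1%, 18.5% to 37.1%), or 23 of 92 with near-identical wells counted once. In YFP1 it was held by 11 of 48 wells and in YFP2 by 15 of 48, or 10 and 13 of 46. These intervals cover the counting of wells within 1 sample and test no difference between genotypes.

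The level behind these shares was much more uneven than the shares. Across the WT wells Pdgfrb ran from 0 to a median of 3.14 and a highest value of 3836 CPM, and across the Renin-null wells from 0 to a median of 0.255 and a highest value of 1148 CPM. WT wells 5, 6, 44 and 3 had 3836, 2584, 1479 and 679 CPM and together 93.7% of the 99636 Pdgfrb counts of their genotype. In Renin-null cells the 4 wells with the most counts held 69.6% of 33260. The summed level was 503.5 CPM over the WT wells and 83.4 CPM over the Renin-null wells. The log2 ratio was -2.59 (exact conditional 95% interval -2.61 to -2.58). It was -2.69 for YFP1 alone, -2.52 for YFP2 alone and -2.55 with near-identical wells once. Without WT well 5 it was -1.86, and without YFP2 well 41 -3.23. With SCTransform-corrected counts, which model the depth of each well, it was -1.23, and over the wells that held no tubule or podocyte marker -4.20 (-3.61 in YFP1 and -5.07 in YFP2). The latter wells had 1801 Pdgfrb counts in YFP2, fewer than the 12372 of YFP2 well 41 alone. The ratio over all wells lay 3.77 below the median of all genes, and 8.49% of genes had a lower ratio. The lower level thus came with a few WT wells of very high Pdgfrb, while the wells of the 2 genotypes overlapped over most of the range.

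Reads that spread between wells of a library bear on the low end. Of the 16 WT wells that held Pdgfrb, 6 had under 1% of the counts of a WT well that shares an index with them, at 18.6 to 63.4 CPM, and all 6 had over 50% mitochondrial counts. Without them 10 WT wells (19.6%) held Pdgfrb, and no Renin-null holder met that description. Among WT wells with an index shared with a well of at least 1000 Pdgfrb counts, 30 of 36 had at least 1 count, against 3 of 9 WT wells that share none. In YFP2 it was 22 of 26 against 11 of 18 wells, and in YFP1 16 of 35 against 4 of 9. The part of spread reads in the 6 WT wells was not tested.

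**Figure D2:**
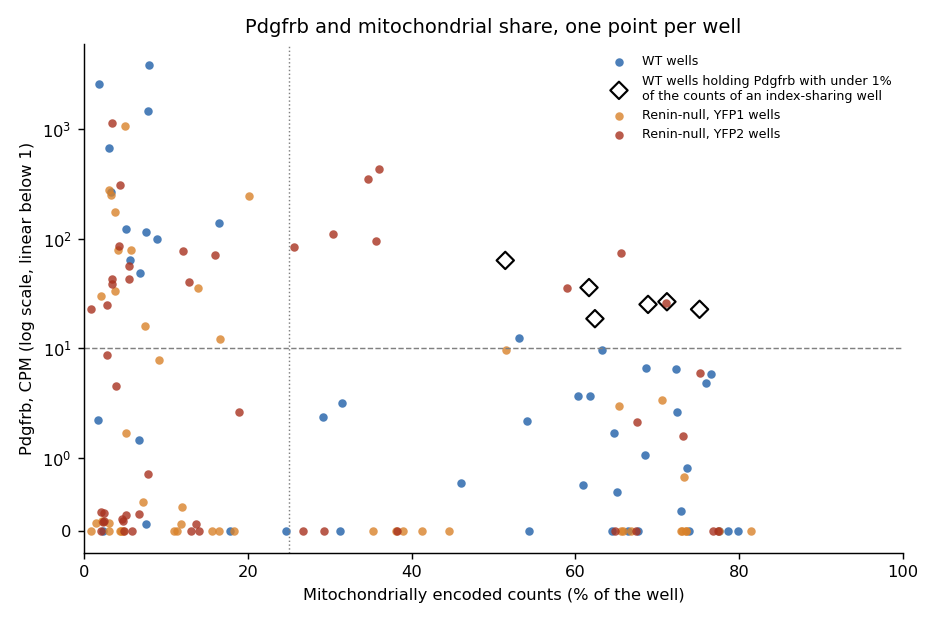
Pdgfrb CPM (vertical axis, logarithmic and linear below 1) against the percentage of mitochondrially encoded counts (horizontal axis) in each of the 147 wells, coloured by library. The dashed line is 10 CPM and the dotted line 25% mitochondrial counts. The open diamonds are the 6 WT wells with under 1% of the counts of an index-sharing well, all to the right of 50%, and the WT wells above 1000 CPM lie to the left of 25%.

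In the filtered wells the genotypes stood further apart. Pdgfrb was held by 10 of 15 WT wells (66.7%, 38.4% to 88.2%) and by 23 of 57 Renin-null wells (40.4%, 27.6% to 54.2%), or 20 of 53 with near-identical wells once. The summed level there was 664 CPM over the WT wells and 88.9 CPM over the Renin-null wells, and the median well had 99.8 CPM and 1.68 CPM. The filtered WT wells that held Pdgfrb had less renin than those that did not. Their Ren1 level was a median of 10955 CPM (674 to 295210) in the 10 holders and 174290 CPM (47695 to 313965) in the other 5, and the 2 sets overlapped. Rgs5 had medians of 13564 and 9697 CPM, and Myh11, the smooth muscle myosin heavy chain, had medians of 3026 and 54.1 CPM. Notch3, a mural Notch receptor, ran the other way with medians of 271 and 318 CPM, and so did Akr1b7 with 2223 and 7165 CPM. The median totals of the 10 holders and the other 5 were 11244200 and 10554700 counts. In the Renin-null filtered wells Myh11 had medians of 1703 CPM in the 23 holders and 1004 CPM in the other 34. Akr1b7 had medians of 2286 and 682 CPM there, and Notch3 of 87.97 and 21.1 CPM. Rgs5 was lower in these holders, with medians of 13403 and 15267 CPM. These sets were formed from the same wells, and the values are given as a description.

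Markers of mural cells were read beside Pdgfrb. All 16 WT holders and all 26 Renin-null holders also held Rgs5 and Acta2, the smooth muscle actin. So did most wells, with Acta2 held by 45 of 51 and 83 of 96 wells. Some holders only just passed the limit. YFP2 well 11, the well with the most podocyte marker counts, held Pdgfrb with Rgs5 at 23.8 CPM and Acta2 at 11.6 CPM. YFP1 well 39 had Acta2 at 10.3 CPM. Notch3, a Notch receptor of mural cells, was held by 10 of the WT holders and 17 of the Renin-null holders. Cspg4, the NG2 proteoglycan of pericytes, was held by 9 and 13. Col1a1, a fibrillar collagen chain, was held by 2 of 16 WT holders and 22 of 26 Renin-null holders, and by 3 of 51 and 49 of 96 wells in all. Over all wells the 6 pericyte markers summed to 11901 CPM over the WT wells and 14768 CPM over the Renin-null wells, led by Rgs5 at 11102 and 14156 CPM, with Kcnj8 at 0 in the WT wells. The 4 mesangium markers (Gata3, Itga8, Serpine2 and Ptn) summed to 1740 and 2898 CPM, led by Serpine2 and with none at 0, and the 6 smooth muscle markers summed to 10732 and 11977 CPM with none called. Of these 16 markers, none was called lower, beside 13.8% of all genes, and 3 (Abcc9, Itga8 and Ptn) or 18.8% were called higher, beside 28.9%. Notch3 was at 309.9 CPM over the WT wells and 146 CPM over the Renin-null wells, a log2 ratio of -1.09 with -1.99 in YFP1 and -0.62 in YFP2, and was not called because of YFP2. With TMM factors it was called lower (-1.79, with -2.44 and -1.27), and 2 of the 16 markers were called lower and 2 higher. Of the markers called higher, Itga8 (log2 ratio 1.53) was at 0.72 without the highest Renin-null well and was not called with TMM factors (0.83). The highest Renin-null well for Gata3, YFP2 well 3, had 5182 CPM of it beside 747 CPM of collecting duct markers and 21.6 CPM of Rgs5. The mesangium sum is therefore not a measure of mesangial cells alone.

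Pdgfra (ENSMUSG00000029231, chr5:75152292-75198215 on GRCm38, plus strand), the alpha receptor, was scarcely read. The WT wells had 6 counts in all, 5 in 1 well and 1 in another, and the Renin-null wells had 253 counts in 21 wells. No WT well held it, which allows a share of up to 5.88% of wells (3 of 51), and 2 of 96 Renin-null wells did (2.08%, 0.253% to 7.32%). Across wells it ran from 0 to a median of 0 and a highest value of 0.596 CPM over the WT wells and 98.8 CPM over the Renin-null wells, the latter from a single count in a well of 10121 counts. The log2 ratio of 4.39 (3.24 to 5.85) therefore rests on a handful of WT counts. Over the wells that held no tubule or podocyte marker it was 2.07, with 30 Renin-null counts left and no well that held Pdgfra.

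The 2 Renin-null wells that held Pdgfra differed from each other. YFP1 well 31 had 57 counts (18.1 CPM), held Pdgfrb at 247 CPM and had 2449 CPM of Dcn, the proteoglycan decorin that marks fibroblasts, with 597 CPM of Col3a1. YFP2 well 31 had 51 counts (10.5 CPM), Pdgfrb at 4.52 CPM, Dcn at 0, Col3a1 at 173 CPM and Pdgfd at 261 CPM. Both receptors were thus held by 1 of 96 Renin-null wells (1 of 92 with near-identical wells once) and by none of the 51 WT wells. This count follows the limit, and at 10 or more counts at any CPM both were found in 5 of 96 Renin-null wells. At 1 or more counts they were found in 15 of 96 Renin-null wells and 2 of 51 WT wells. The 7 fibroblast markers summed to 174 CPM over the WT wells and 1167 CPM over the Renin-null wells, led by Col1a2 at 164 CPM and Col3a1 at 534 CPM, with 3 called higher and Dpt at 0 in both. They summed to 441 CPM in YFP1 and 1773 CPM in YFP2, and their part in the Pdgfra counts was not tested.

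Among the ligands, Pdgfa (ENSMUSG00000025856, chr5:138976014-138997370, minus strand) was the most widely held. It was held by 13 of 51 WT wells (25.5%, 14.3% to 39.6%) and 44 of 96 Renin-null wells (45.8%, 35.6% to 56.3%), or 40 of 92 with near-identical wells once. Across wells it ran from 0 to a median of 0.947 and a highest value of 182 CPM in WT renin cells, and from 0 to a median of 14.7 and a highest value of 940 CPM in Renin-null cells. The lower ends overlap, and 182 CPM was passed in Renin-null wells only. The summed level was 38.4 CPM over the WT wells and 123 CPM over the Renin-null wells. The log2 ratio was 1.69 (1.65 to 1.72), with 1.68 in YFP1 and 1.69 in YFP2. It was 0.51 above the median of all genes and higher than 56.7% of them, and with TMM factors it was 0.98, short of the 2-fold call.

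The share of wells with Pdgfa depended on which wells were read. In the filtered wells it was held by 10 of 15 WT wells and 38 of 57 Renin-null wells, 66.7% in each genotype, or 34 of 53 Renin-null wells (64.2%) with near-identical wells once. That filter acts on depth, number of genes and mitochondrial share together. With each well thinned to 62000 counts in total, at least 1 Pdgfa count was left in 12 of 49 WT wells (24.5%) and 42 of 83 Renin-null wells (50.6%). The counts outside the mitochondrial genes still differed there, at about 24193 in the median WT well and 57166 in the median Renin-null well. With each well thinned instead to 25000 counts outside those genes, at least 1 Pdgfa count was left in 11 of 51 WT wells (21.6%) and 45 of 84 Renin-null wells (53.6%), and at least 1 Pdgfrb count in 19 (37.3%) and 25 (29.8%). The level still differed, at 47.7 CPM in the filtered WT wells and 132 CPM in the filtered Renin-null wells, and the median among holders was 57.97 and 115 CPM. The counts were also spread over more wells than for the other members. The 4 wells with the most Pdgfa counts had 63.2% of 7594 counts in WT renin cells and 36.1% of 49248 in Renin-null cells. YFP1 well 45 and YFP2 well 45, a near-identical pair, were the 2 Renin-null wells with the most counts, at 5482 and 4578, and counting such pairs once gave a log2 ratio of 1.56.

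Markers of tubule cells and podocytes were read beside Pdgfa, and much of their summed level came from single wells. The 6 proximal tubule markers summed to 55.4 CPM over the WT wells and 838 CPM over the Renin-null wells (1059 in YFP1 and 653 in YFP2), with 5 called higher and Slc5a2 at 0 in the WT wells. The 4 loop and distal tubule markers, all called higher, summed to 0.515 and 109 CPM (189 in YFP1 and 43.0 in YFP2), led in Renin-null cells by Slc12a1, the cotransporter of the thick ascending limb, with none at 0. The 4 podocyte markers summed to 2.89 and 391 CPM (14.4 in YFP1 and 705.7 in YFP2), led by Nphs1, the slit diaphragm protein nephrin, with 2 called higher and Podxl at 0 in the WT wells. The 4 collecting duct markers summed to 31.4 and 79.4 CPM (4.71 in YFP1 and 142 in YFP2), led by Fxyd4, with 1 called lower and none at 0 in either genotype. The lower call was Scnn1g, with 99.8% of its WT counts in WT well 10. Without that well its log2 ratio turned from -2.88 to 5.89. In Renin-null cells 1 well had 74.8% of the podocyte counts and another 74.4% of the loop and distal tubule counts, and without that well the lists summed to 101 and 28.6 CPM. The first, YFP2 well 11, had 1 Pdgfa count and the second, YFP1 well 23, had 259 (28.9 CPM). The proximal tubule markers summed to 494 CPM without the well that had 42.6% of their counts, YFP1 well 19, which had 68 Pdgfa counts (6.56 CPM).

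The 6 Renin-null wells with the most Pdgfa counts differed in their markers. YFP1 well 7 had 4025 Pdgfa counts (449 CPM) with 20.8 CPM of Rgs5, 2.23 CPM of Acta2, 27.3 CPM of proximal tubule markers and 753 CPM of Dcn. YFP2 well 3 had 3450 (452 CPM) with 21.6 and 7.2 CPM, and its collecting duct markers summed to 747 CPM. The near-identical pair of YFP1 well 45 and YFP2 well 45 had 11311 and 11819 CPM of Rgs5, together with 1101 and 1108 CPM of proximal tubule markers. Their podocyte markers summed to 292 and 265 CPM, and their loop and distal tubule markers to 127 and 114 CPM. YFP1 well 26 had 3698 Pdgfa counts with 19861 CPM of Rgs5, 0.129 CPM of proximal tubule markers and 62.5 CPM of collecting duct markers. YFP2 well 41 had 3609 with 16282 CPM of Rgs5, 2.32 CPM of proximal tubule markers and collecting duct markers at 0. Its podocyte markers summed to 26.2 CPM. So 4 of the 6 were rich in Rgs5, and 2 of these 4, a near-identical pair, were also rich in proximal tubule markers. Over the wells that held both Rgs5 and Acta2, 45 of WT and 83 of Renin-null cells, Pdgfa was at 39.1 and 117 CPM, a log2 ratio of 1.58. Over the wells that held none of these 18 tubule, duct and podocyte markers, 39 of WT and 53 of Renin-null cells, it was at 47.6 and 66.5 CPM, a log2 ratio of 0.48 (0.40 in YFP1 and 0.55 in YFP2), short of the call. In those wells Pdgfa was held by 10 of 39 WT wells and 18 of 53 Renin-null wells. These 2 sets of wells were chosen after seeing the data, and wells with more counts are more likely to hold a marker as well as Pdgfa.

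**Figure D3:**
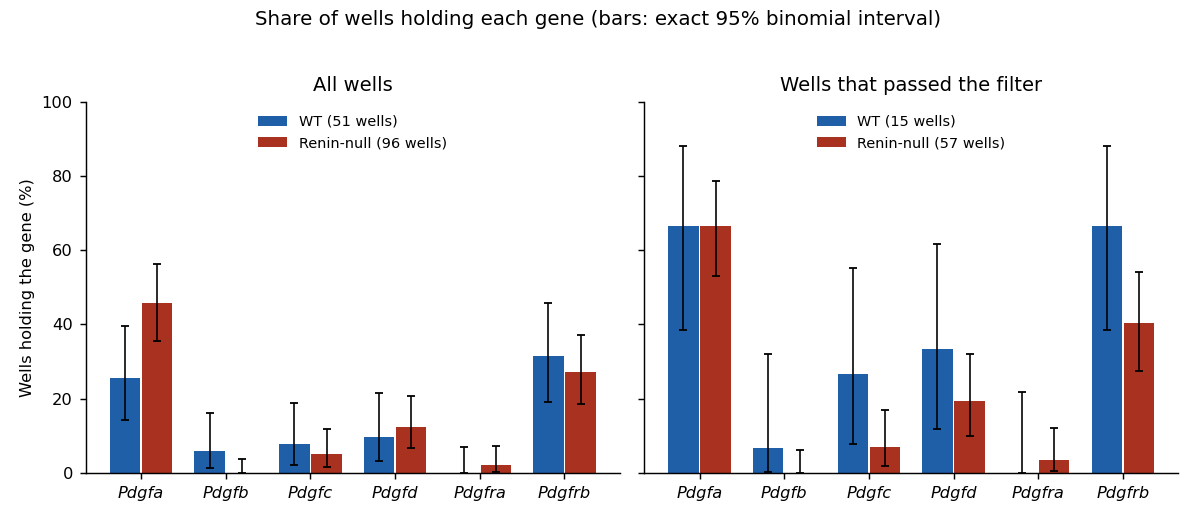
Percentage of wells that hold each gene (bars, vertical axis from 0) for the 2 genotypes, for all wells (left) and for filtered wells (right), with exact 95% binomial intervals. For Pdgfa the bars are 25.5% and 45.8% on the left and 66.7% in both genotypes on the right. For Pdgfrb they are 31.4% and 27.1% on the left and 66.7% and 40.4% on the right.

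Pdgfb (ENSMUSG00000000489, chr15:79995874-80014977, minus strand), which encodes the B chain and so the main partner of the beta receptor, was held by 3 WT wells and had at least 1 count in 10. WT well 42 had 1789 counts (1416 CPM), WT well 3 had 1248 (103.4 CPM) and WT well 19 had 50 (11.1 CPM), out of 3098 counts in WT renin cells. In the Renin-null wells there were 7 counts, 6 of them in YFP2 well 35, and none in YFP1. No Renin-null well held it, which allows a share of up to 3.12% of wells (3 of 96). The summed level was 15.7 CPM against 0.0176 CPM, a log2 ratio of -9.80 (-11.12 to -8.76), and for YFP1, with no count, the exact interval of the log2 ratio lay at -9.59 and below. These intervals cover the counting of reads and not the catching of cells, of which 2 in 51 decided the WT level.

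The 3 Pdgfb wells were set against endothelial and platelet genes, since these cells are known sources of the B chain. Cdh5, the junctional cadherin of endothelium, was at 0 in all 3 wells, and Pecam1 was at 0, 1.24 and 9.11 CPM in WT wells 42, 3 and 19. Kdr, the VEGF receptor of endothelium, went the other way in WT well 3, which had 99.2% of the 508 Kdr counts of the WT wells (41.8 CPM) and was the only WT well that held it. The other 5 endothelium markers were at 0 in all 3 wells except for 2 Emcn counts in WT well 42. The 8 endothelium markers summed to 38.3 CPM over the WT wells, led by Emcn at 24.9 CPM, with 3 of them (Cdh5, Egfl7 and Plvap) at 0, and to 236 CPM over the Renin-null wells, led by Emcn at 161 CPM. In YFP1 the list summed to 36.1 CPM and in YFP2 to 403 CPM, and 1 well had 69.6% of the Renin-null Emcn counts. The platelet markers Pf4, Ppbp and Gp9 were at 0 in both genotypes, and the fourth, Itga2b, was at 0.0303 and 111 CPM, with 99.6% of the Renin-null counts in 1 well. The part of other cell types in the Pdgfb counts was not tested. Ren1 stood at 18762, 5919 and 21402 CPM in WT wells 42, 3 and 19. WT well 3 also held Pdgfrb, at 679 CPM, and was the only well in which Pdgfb and Pdgfrb were held together. YFP2 well 35, with 6 Pdgfb counts, had 474 CPM of Cdh5 and 638 CPM of Pecam1.

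Pdgfc (ENSMUSG00000028019, chr3:81036416-81214040, plus strand), a ligand secreted in a latent form, was carried by few wells in either genotype. It was held by 4 of 51 WT wells (7.84%, 2.18% to 18.9%) and 5 of 96 Renin-null wells (5.21%, 1.71% to 11.7%), or 3 of 92 with near-identical wells once. WT well 18 had 4924 of 5442 counts (587 CPM), and YFP2 well 5 had 2898 of 4496 (352 CPM). The median well was at 0 in both genotypes. The summed level was 27.5 CPM over the WT wells and 11.3 CPM over the Renin-null wells. The log2 ratio was -1.29 (-1.34 to -1.23), with -3.24 in YFP1 and -0.59 in YFP2. Without WT well 18 the ratio was 2.04, without YFP2 well 5 it was -2.75 and without both it was 0.58, so the 1 WT well set the direction. With TMM factors Pdgfc was called lower, at -1.99 in the sum, -3.68 in YFP1 and -1.25 in YFP2. Over the wells that held no tubule or podocyte marker it was -8.95 in YFP1 and -0.19 in YFP2.

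Pdgfd (ENSMUSG00000032006, chr9:6168584-6378850, plus strand), the other latent ligand, was held by 5 of 51 WT wells (9.80%, 3.26% to 21.4%) and 12 of 96 Renin-null wells (12.5%, 6.63% to 20.8%), or 11 of 92 with near-identical wells once. Across wells it ran from 0 to a median of 0.86 and a highest value of 1031 CPM in WT renin cells, and from 0 to a median of 0.302 and a highest value of 1914 CPM in Renin-null cells. The wells that held it were rich in it, with a median of 222 CPM in WT holders and 571 CPM in Renin-null holders. The summed level was 109 CPM over the WT wells and 162 CPM over the Renin-null wells. The log2 ratio was 0.58 (0.55 to 0.60). The 2 Renin-null libraries lay on either side of the WT level, at 1.10 in YFP1 and -0.08 in YFP2, and the 4 wells with the most counts had 98.7% of the WT counts and 77.6% of the Renin-null counts. Single wells decided the value, which was 1.60 without WT well 6 and 0.15 without YFP1 well 1. With TMM factors its sign turned, to -0.13. Over the wells that held no tubule or podocyte marker the 2 libraries stood far apart, at 1.5 in YFP1 and -7.61 in YFP2, where 62 Pdgfd counts were left and none of 24 wells held it.

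**Figure D4:**
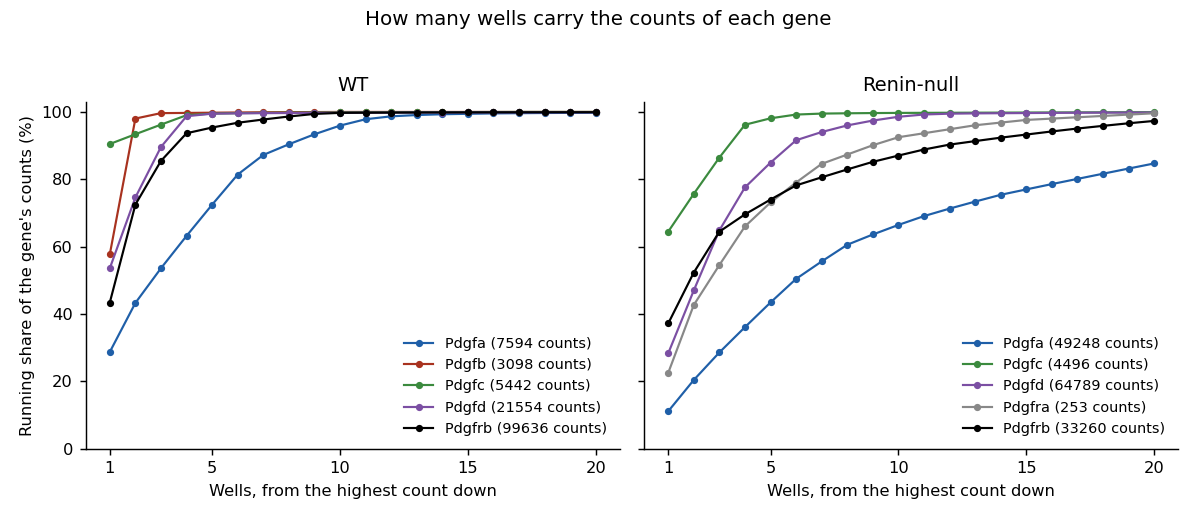
Running share of the counts of each gene (vertical axis, %) over the 20 wells with the most counts (horizontal axis, from the highest down), in WT renin cells (left) and Renin-null cells (right); genes with under 100 counts in a genotype are left out. In WT renin cells the first 4 wells carry 99.7% of Pdgfb, 99.0% of Pdgfc, 98.7% of Pdgfd and 93.7% of Pdgfrb counts, and 63.2% of Pdgfa counts. In Renin-null cells Pdgfa is the most spread, with 36.1% in the first 4 wells.

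Ligand and receptor were also read together in single wells. In the WT wells, 10 of the 13 that held Pdgfa, all 4 that held Pdgfc and 4 of the 5 that held Pdgfd also held Pdgfrb. In the Renin-null wells it was 21 of 44 for Pdgfa, 4 of 5 for Pdgfc and 7 of 12 for Pdgfd, and with near-identical wells once 18 of 40, 2 of 3 and 6 of 11. The combination most often found was thus a beta receptor beside the A chain, which binds mainly the other receptor type. Wells with more counts are more likely to hold any gene, and in the Renin-null wells the median total was 6787280 counts in Pdgfrb holders and 1764990 in the others. In the filtered wells, where the median totals of Pdgfrb holders and others were 6808680 and 6628480 counts in Renin-null cells, Pdgfa was held by 19 of 23 wells with Pdgfrb (82.6%) and 19 of 34 without it (55.9%), or 16 of 20 and 18 of 33 with near-identical wells once. In the filtered WT wells it was held by 9 of 10 with Pdgfrb and 1 of 5 without.

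No ligand was held, at 10 counts and 10 CPM, by 36 of 51 WT wells and 49 of 96 Renin-null wells (49 of 92 with near-identical wells once), although at least 1 Pdgfa count was found in 32 WT wells and 71 Renin-null wells. A single ligand was held by 7 WT wells and 34 Renin-null wells (33 of 92), and this was Pdgfa in 5 and 31 (30) of them. Pdgfa with Pdgfd was the commonest pair of ligands in Renin-null cells, in 9 wells (8 of 92) without Pdgfc and in 1 with it. In WT renin cells Pdgfa was paired with Pdgfb, with Pdgfc and with Pdgfd in 2 wells each, and 2 more wells held Pdgfa, Pdgfc and Pdgfd. No well of either genotype held all 4 ligands.

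The genes whose levels ran most like those of the members were taken by Spearman rho across wells with at least 100000 counts and with near-identical wells once. For Pdgfrb in 48 WT wells, among 1225 genes held by at least 20% of them, these were Canx (rho of 0.77), C1s1 (0.76), Actn4 (0.75), Tuba1c (0.75) and Mfge8 (0.72). For Pdgfrb in 79 Renin-null wells, among 2426 genes, these were Gm6211 (0.57), Zeb2 (0.56), Serpinh1 (0.52), Aktip (0.52) and Rc3h2 (0.50). No gene was in both sets, but short sets from 1225 and 2426 genes would seldom share one by chance. The lack of overlap is therefore not read as a difference between genotypes. The wells share library and depth, and Pdgfrb itself had a rho of 0.49 with the number of genes detected and -0.41 with the mitochondrial share in the WT wells, and of 0.43 and -0.26 in the Renin-null wells.

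For Pdgfa the closest genes were Junb (0.77), Kmt2d (0.75), Eif1 (0.74), Slc39a1 (0.72) and Cnbp (0.71) in WT renin cells and Septin2 (0.54), Klf12 (0.51), S100a11 (0.51), Sfpq (0.51) and Ywhah (0.50) in Renin-null cells. For Pdgfd in Renin-null cells they were Hadha (0.56), Nol4l (0.54), Lamp1 (0.48), Cttn (0.47) and Dtna (0.46). With the number of genes detected, Pdgfa itself had a rho of 0.63 in the WT wells and 0.34 in the Renin-null wells. With the mitochondrial share it had -0.47 and -0.29. Pdgfd in the Renin-null wells had 0.27 and -0.11 with these 2 measures. Among the members themselves, Pdgfa and Pdgfrb had a rho of 0.51 in the WT wells and 0.42 in the Renin-null wells, and Pdgfd and Pdgfrb of 0.33 and 0.24. These are descriptions of wells from 1 sample each.

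Beyond the members, 71 genes of the pathway were read from lists of ligand processing, binding partners, signalling, negative regulators, targets and related receptors and ligands. Of these, 24 (33.8%) were called higher in Renin-null cells and 11 (15.5%) lower, close to the 28.9% and 13.8% of all genes. Many of the lower calls rested on 1 WT well. Without the highest WT well of each gene, 3 of the 11 lower calls were still past 2-fold in the sum and 6 had the other sign, and without the highest well of either genotype in turn 23 of the 24 higher calls were still past 2-fold. With TMM factors 20 of the 24 higher calls and all 11 lower calls remained.

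Among the 7 processing enzymes, which cut PDGF chains into active form, 3 were called higher, 1 lower and 3 not, with a median log2 ratio of 2.00 beside 1.17 for all genes. Plat, the tissue plasminogen activator that activates PDGF-C, was at 93.97 CPM over the WT wells and 376 CPM over the Renin-null wells, but its log2 ratio was -4.83 in YFP1 and 2.87 in YFP2 and it was not called. A single well held 98.6% of its WT counts and 60.8% of its Renin-null counts. Plau, the urokinase that can activate PDGF-D, was at 0.096 and 22.0 CPM (log2 ratio 7.84), with 91.6% of the Renin-null counts in 1 well. Furin, a convertase that cuts the A and B chains, was at 14.7 and 21.5 CPM (log2 ratio 0.55, not called) and was held by 3 WT wells and 18 Renin-null wells. Pcsk7, another convertase, was called lower at 46.9 and 5.15 CPM, with 95.6% of the WT counts in 1 well, without which the WT level was 2.19 CPM and the lower of the 2.

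Of the 5 binding partners, 1 was called higher and 2 lower. Sparc, a matrix protein that binds PDGF-B and keeps it from its receptor, was at 384 CPM over the WT wells and 1585 CPM over the Renin-null wells (log2 ratio 2.04, with 2.05 in YFP1 and 2.04 in YFP2), and was held by 17 of 51 and 71 of 96 wells. Lrp1, a large endocytic receptor that associates with the beta receptor, was called lower at 483 and 102 CPM (log2 ratio -2.24, or -0.90 without the WT well that had 62.3% of the WT counts). Thbs1, thrombospondin, was called lower at 82.6 and 34.8 CPM, with 94.8% of the WT counts in 1 well, without which the WT level was 4.52 CPM and the lower of the 2. Nrp1, a coreceptor, was at 369 and 438 CPM and was not called. Sparc and Nrp1 were spread over wells, with 28.9% and 30.5% of the WT counts and 13.4% and 14.5% of the Renin-null counts in the highest well.

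Of the 24 receptor-proximal genes, 8 were called higher, 3 lower and 13 not, with a median log2 ratio of 1.88. Jak1, a kinase upstream of STAT proteins, was at 136 and 743 CPM (log2 ratio 2.45, or 4.03 without the highest WT well). The share of wells went the other way, with Jak1 held by 30 of 51 WT wells and 37 of 96 Renin-null wells. Pik3r1, the regulatory subunit of PI3 kinase that binds the phosphorylated receptor, was at 29.7 and 200 CPM (2.75), with 92.2% of the WT counts in 1 well, without which the WT level was 2.45 CPM and the ratio 6.35. Rasa1, the Ras GTPase-activating protein, was at 2.61 and 104 CPM (5.31, or 8.21 without the WT well that had 87.4% of the WT counts). Of the adaptors, Grb2 was called higher at 7.22 and 35.5 CPM (2.30, or 4.19 without the highest WT well) and so was Nck1 at 6.87 and 27.7 CPM (2.01, or 4.67), but neither was called with TMM factors (0.39 and 0.90 in YFP2). Shc1 was called lower at 221 and 42.9 CPM (-2.36, or -1.29 without the highest WT well) and Crkl at 111 and 5.90 CPM (-4.23, or -2.35). Crk, Nck2 and Gab1, at log2 ratios of -0.14, 0.39 and -0.60, were not called. Among the downstream kinases, Akt1 was called lower, at 50.6 and 13.0 CPM (log2 ratio -1.97, or -0.92 without the highest WT well). Map2k1, the MEK1 kinase, was called higher, at 0.243 and 45.9 CPM, and was held by no WT well and 11 Renin-null wells.

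Of the 7 negative regulators, 4 were called higher and 1 lower. Cbl and Cblb, ubiquitin ligases that send activated receptors to degradation, went opposite ways, at 3.86 and 33.8 CPM and at 21.9 and 3.03 CPM. Ptpn2, a phosphatase that acts on the beta receptor, was at 2.82 and 64.6 CPM (log2 ratio 4.52). Of the 4 target genes, the immediate-early genes Fos and Egr1 were the most abundant, at 3043 and 3838 CPM and at 2701 and 1841 CPM, and were not called. Myc was called higher at 0.702 and 76.8 CPM, held by no WT well and 10 Renin-null wells, and Srf, the factor that binds serum response elements, was called lower at 26.4 and 6.27 CPM. Without 1 WT well Srf was at 0.828 CPM in WT renin cells, below the Renin-null level. Of the 13 related receptors and ligands, 4 were called higher and 2 lower. Csf1 was called lower at 50.3 and 5.01 CPM, but without 1 WT well its WT level was 3.38 CPM, again below the Renin-null level. Kitl, at 35.9 and 207 CPM, was not called (0.94 in YFP1 and 3.16 in YFP2).

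The direction of 4 of the 6 member ratios did not depend on how they were computed. Over the 9 other ways in the plot of ratios, the log2 ratio was 0.98 to 2.59 for Pdgfa, -11.53 to -8.73 for Pdgfb, 3.68 to 7.52 for Pdgfra and -3.30 to -1.23 for Pdgfrb, whereas it was -3.24 to 0.58 for Pdgfc and -0.13 to 1.32 for Pdgfd. Over the wells that held no tubule or podocyte marker, which is not among those 9, the ratios of these 4 genes all lay below their ranges. They were 0.48 for Pdgfa, -11.85 for Pdgfb, 2.07 for Pdgfra and -4.20 for Pdgfrb.

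**Figure D5:**
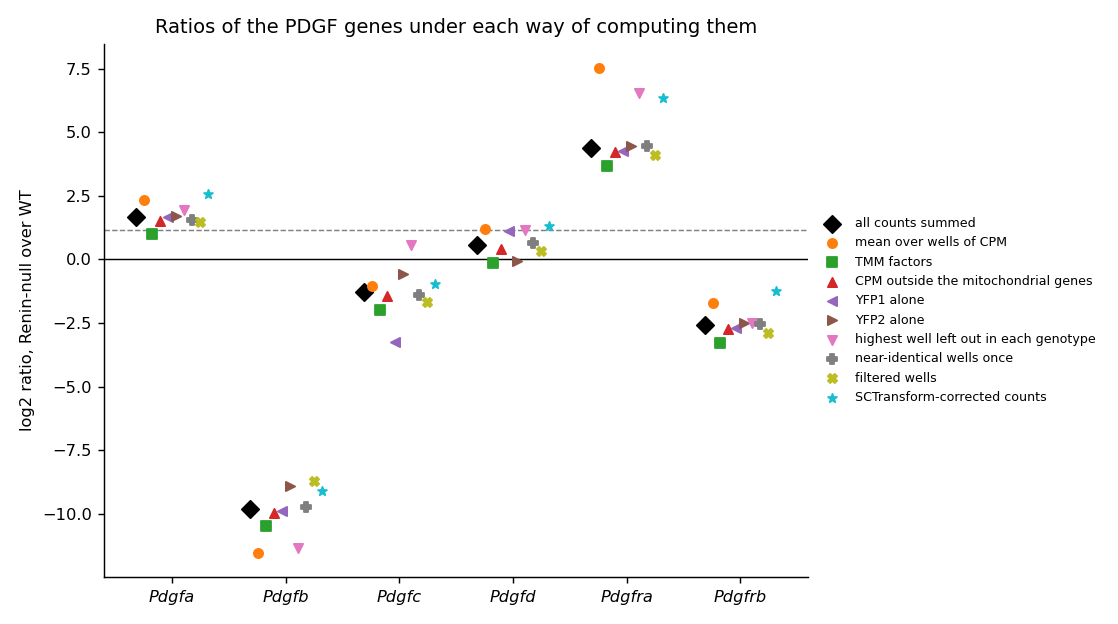
The log2 ratio of Renin-null over WT (vertical axis) for each PDGF gene (horizontal axis) with all counts summed (black diamonds) and under 9 other ways of computing it (coloured symbols). The solid line is 0 and the dashed line the median of all genes, 1.17. Pdgfb and Pdgfrb lie below 0 and Pdgfa and Pdgfra above it under each way, whereas Pdgfc and Pdgfd lie on both sides.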

How the data were processed

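Single YFP-positive cells were captured on the Fluidigm C1, amplified with SMART-Seq v4 and made into Nextera XT libraries, without molecular identifiers. The deposited tables hold estimated counts per gene symbol that the authors made with FastQC 0.11.5, Trimmomatic 0.39 and Salmon 0.11.2 (processing notes) on GRCm38.p6, and imported as length-scaled TPM; the study's methods do not say that wells were removed. Here the values were rounded to whole counts, summed per genotype and library and divided by total counts (CPM), with Python 3.11.15, numpy 2.4.6, pandas 2.3.3, scipy 1.17.1 and R 4.3.3. Ratios are log2 of CPM, Renin-null over WT, with exact conditional 95% intervals and a genotype at 0 set to 3 counts; shares of wells have exact Clopper-Pearson 95% intervals, and the limit for 0 wells is 3 of the total. The calls were tested on counts simulated for the summed libraries, without variation between wells. That test does not cover calls that rest on 1 well. Depth is 26401 to 17124854 counts in WT wells and 3628 to 14505243 in Renin-null wells, and PCR reads are not independent molecules. Levels per length used GENCODE M21 coding transcripts, and promoters came from RefSeq on GRCm38.p6 (Pdgfa, Pdgfc, Pdgfd and Pdgfra matched).

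Named genes are the 6 members, genes of pathway and marker lists, and the 5 genes with the highest Spearman rho to a member held by at least 10 wells. The members and lists were chosen with earlier results of these data known. Alternatives used TMM factors (edgeR 4.0.16), SCTransform (Seurat 5.3.0, sctransform 0.4.2), single libraries, other limits and filtered wells; the index-aware shares, the highest well left out in 1 genotype at a time, the wells chosen by mural, tubule and podocyte markers, and the thinning to 25000 counts outside the mitochondrial genes (12 Renin-null wells left out) were added after seeing the data. Index comparisons leave out 2 wells whose index labels disagree. Some genes of the pathway and marker lists are counted in the totals but not reported here.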

Additional observations from a re-analysis of the deposited data

How the results depend on the processing

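No paired analysis was possible because the wells' numbers name no shared mouse or capture and no test was made. Each genotype is 1 sample, so genotype cannot be told apart from library, capture and mouse, and the depth and mitochondrial share differ between genotypes.

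The log2 ratios outside their counting interval were as follows, and no called ratio changed its sign in these alternatives. With the mean over wells of CPM they were 2.35 for Pdgfa, -11.53 for Pdgfb, -1.06 for Pdgfc, 1.18 for Pdgfd, 7.52 for Pdgfra and -1.72 for Pdgfrb. With TMM factors they were 0.98 for Pdgfa (no longer called), -1.99 for Pdgfc (now called lower), -0.13 for Pdgfd and -3.30 for Pdgfrb, and with CPM outside the mitochondrial genes 1.53, -1.45, 0.42 and -2.75. YFP1 alone gave -3.24 for Pdgfc, 1.10 for Pdgfd and -2.69 for Pdgfrb, and YFP2 alone -0.59, -0.077 and -2.52. With the highest well of each gene left out in each genotype they were 1.94 for Pdgfa, -11.35 for Pdgfb, 0.58 for Pdgfc, 1.17 for Pdgfd, 6.55 for Pdgfra and -2.49 for Pdgfrb. Left out in 1 genotype at a time, which was added after seeing the data, the highest WT well gave 2.09 for Pdgfa, -8.57 for Pdgfb, 2.04 for Pdgfc, 1.60 for Pdgfd, 6.91 for Pdgfra and -1.86 for Pdgfrb, and the highest Renin-null well 1.54 for Pdgfa, -12.58 for Pdgfb, -2.75 for Pdgfc, 0.15 for Pdgfd and -3.23 for Pdgfrb. Also added after seeing the data, the wells that held Rgs5 and Acta2 gave 1.58 for Pdgfa, -1.15 for Pdgfc, 0.42 for Pdgfd and -2.46 for Pdgfrb, and the wells that held no tubule or podocyte marker 0.48 for Pdgfa (no longer called), -11.85 for Pdgfb, -1.11 for Pdgfc (-8.95 in YFP1 and -0.19 in YFP2), 0.42 for Pdgfd (1.5 and -7.61), 2.07 for Pdgfra and -4.20 for Pdgfrb. Near-identical wells counted once gave 1.56 for Pdgfa, -1.39 for Pdgfc, 0.63 for Pdgfd and -2.55 for Pdgfrb. The filtered wells gave 1.47 for Pdgfa, -8.73 for Pdgfb, -1.68 for Pdgfc, 0.34 for Pdgfd and -2.90 for Pdgfrb. SCTransform-corrected counts gave 2.59 for Pdgfa, -0.95 for Pdgfc, 1.32 for Pdgfd, 6.35 for Pdgfra and -1.23 for Pdgfrb. The cause of these shifts was not tested.

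The receptor shares moved with the limit. At 1 count, 76.5% of WT wells and 62.5% of Renin-null wells had Pdgfrb, and 21.9% and 15.6% of Renin-null wells had Pdgfra and both receptors. At 100 CPM, 13.7% of WT wells and 9.38% of Renin-null wells had Pdgfrb and 0% of Renin-null wells had Pdgfra or both receptors. In filtered wells Pdgfrb was held by 66.7% of WT wells and 40.4% of Renin-null wells. YFP2 alone, and wells thinned to 62000 counts (2 WT and 13 Renin-null wells left out), gave 0% for both receptors in Renin-null cells. The other 42 of 54 receptor shares stayed inside their interval, as did 54 of 72 ligand shares, both with the thinning to 25000 counts outside the mitochondrial genes included. At 4-fold, 1523 genes were called lower and 3672 higher, in place of 2574 and 5410.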
